A study of Homo sapiens with 14 samples.

Results

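The comparison described here sets one siRNA against LAT1 beside another siRNA against the same gene, siLAT1-3 against siLAT1-2, in KYSE510 cells. KYSE510 is an established line of esophageal squamous cell carcinoma. Both siRNAs were transfected with a lipid reagent and the cells were left for 48 h before RNA was taken. The comparison uses 4 of the 14 samples of the series, 2 libraries per siRNA. The 2 libraries of the control siRNA, siNC, show on which side of the control a gene lay. They also enter the choice of genes tested and the estimate of spread. The other RNA libraries carry siRNAs against EZH2 with their own siNC, and CUT&Tag samples of the EZH2 protein were not analysed here. All cells of these 6 libraries were transfected with an siRNA, and no untransfected culture is among them. The labels do not state whether replicate libraries stem from different cultures. The p-values are therefore about the scatter of these 6 libraries alone, and that scatter may be purely technical.

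LAT1 is the protein of SLC7A5, a carrier that exchanges large neutral amino acids such as leucine across the plasma membrane. It works as a pair with the heavy chain encoded by SLC3A2, and squamous carcinomas are known for high levels of both. An siRNA is loaded into an Argonaute protein, whose guide strand directs cleavage of a fully paired transcript. A guide strand can also lower transcripts that pair with its seed alone, in the way a microRNA does, and for that reason a target is commonly silenced with more than one siRNA. The sequences of the siRNAs used in the study were not analysed here, so no match to any transcript was looked for.

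Values are FPKM, reads or fragments adjusted for the length of the gene and the depth of the library, from the authors' deposited table. Of 63677 genes listed, 11678 averaged 1 FPKM or more over the siLAT1 and siNC libraries and were tested. The gene just inside that limit was SLC35E4 at 1.0 FPKM and the gene just outside it was CTD-2528L19.6 at 0.998 FPKM. Differences are in log2(FPKM + 1), siLAT1-3 minus siLAT1-2, which understates the change of low genes. A gene is called at a Benjamini-Hochberg adjusted p under 0.05 (two-sided) from limma, fitted over all 6 libraries and all genes tested. With 2 libraries on either side, the smallest two-sided p of an exact permutation test is 0.333, so every call rests on the spread that limma pools across genes. In bulk RNA, fewer cells of a kind and less RNA per cell cannot be told apart.

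Estimated depth was 12640000 and 13240000 in siLAT1-3 libraries, 14300000 and 13200000 in siLAT1-2 libraries, and 16780000 and 13580000 in siNC libraries. All 10 epithelial markers were detected, led by KRT5 at up to 508 FPKM. Of them, 7 differed between the siRNAs, as described with the basal squamous genes. Immune markers summed to at most 1.54 FPKM in siLAT1-3 libraries, 1.54 FPKM in siLAT1-2 libraries and 1.85 FPKM in siNC libraries, with 5 of 15 at 0 in all 6, MS4A1 among them. Endothelial markers summed to at most 1.53, 1.33 and 1.43 FPKM in the siLAT1-3, siLAT1-2 and siNC libraries, with PECAM1, KDR and EMCN at 0. Fibroblast markers summed to at most 3.65, 3.74 and 3.46 FPKM in the same order of groups, with none at 0 in all and COL1A1 the highest at 2.17 FPKM. The single fibroblast and the single endothelial marker that could be tested were not called.

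Both siRNAs lowered the targeted gene, and siLAT1-2 lowered it further. SLC7A5 stood at 106.63 and 107.08 FPKM in siLAT1-3 libraries, at 86.25 and 80.36 FPKM in siLAT1-2 libraries, and at 407.18 and 413.39 FPKM in siNC libraries. No library of one siRNA overlapped the other, and both were far below siNC. The log2 difference between the siRNAs was 0.36 ± 0.0367 (SE, n = 2 each; limma adjusted p = 0.000803), and SLC7A5 was 1.93 below siNC with siLAT1-3 and 2.29 below siNC with siLAT1-2 on the log2 scale. The call held in all 13 alternative settings.

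The heavy chain followed the same order. SLC3A2 had 66.21 and 65.01 FPKM in siLAT1-3 libraries, 53.31 and 53.07 FPKM in siLAT1-2 libraries, and 127.74 and 133.3 FPKM in siNC libraries, a difference between the siRNAs of 0.30 (limma adjusted p = 0.000801). EZH2, the histone methyltransferase that the rest of the series targets, overlapped between the siRNAs, at 17.29 and 16.21 FPKM in siLAT1-3 libraries against 16.75 and 18.38 FPKM in siLAT1-2 libraries. Its difference was -0.064 with a 95% interval of -0.19 to 0.064 (limma adjusted p = 0.429). The other system L carriers that could be tested were not called.

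Across the transcriptome, 2981 of 11678 genes (25.5%) differed between the siRNAs, 1446 of them higher (12.4%) and 1535 lower (13.1%) with siLAT1-3. Most of these differences were small, and 75 (0.642%) reached an absolute log2 difference of 1, of which 29 (0.248%) were higher and 46 (0.394%) lower with siLAT1-3. Against siNC, 3672 genes (31.4%) were called with siLAT1-3, 17.9% of all genes higher and 13.6% lower. With siLAT1-2 it was 3796 genes (32.5%), 18.6% higher and 13.9% lower. Both comparisons share the siNC libraries. The count between the siRNAs was 1958 without siLAT1-2 replicate 1 and 1964 without siLAT1-3 replicate 2, and 1823 with no filter on low values. How far the remaining SLC7A5 bears on the other genes was not tested.

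The differences between the siRNAs were wider than those between libraries of one siRNA. Over all genes tested, the median absolute log2 difference was 0.115 between the siRNA means, against 0.0629 between the siLAT1-3 libraries and 0.0618 between the siLAT1-2 libraries. Among genes with an average log2(FPKM + 1) of at least 2 over the 6 libraries, 62 differed by 1 or more between the siRNA means, against 11 between the siLAT1-3 libraries and 15 between the siLAT1-2 libraries. A difference between means of 2 libraries carries less noise than one between single libraries, so these figures are not on equal terms.

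**Figure D1:**
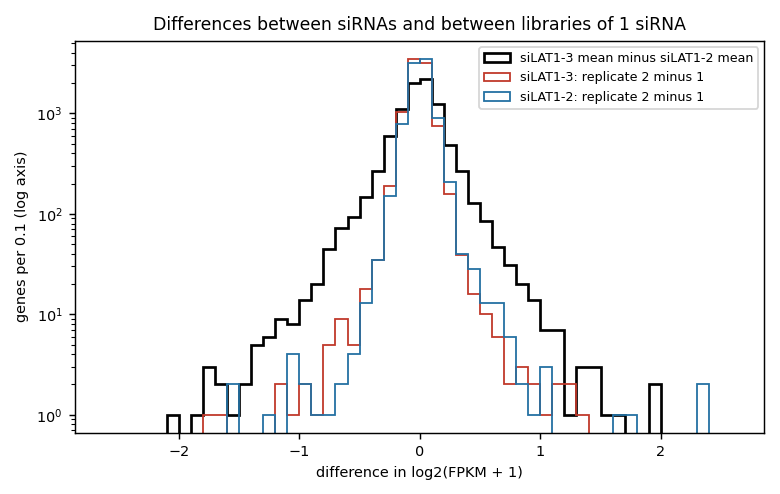
Number of genes per 0.1 of log2 difference (vertical log axis) against the difference in log2(FPKM + 1), for the siLAT1-3 mean minus the siLAT1-2 mean and for replicate 2 minus replicate 1 within each siRNA. The median absolute difference was 0.115 between the siRNAs, 0.0629 within siLAT1-3 and 0.0618 within siLAT1-2.

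The genes with the highest difference in favour of siLAT1-3 kept their siNC level with siLAT1-3 and stood below it with siLAT1-2. CYB5R3, the reductase that passes electrons from NADH to cytochrome b5, had 22.25 and 23.19 FPKM in siLAT1-3 libraries, 5.5 and 4.44 FPKM in siLAT1-2 libraries, and 23.2 and 22.99 FPKM in siNC libraries (log2 difference 2.00 ± 0.0797, SE; limma adjusted p = 1.94e-05). SGPL1, the lyase that breaks down sphingosine 1-phosphate, had 14.77 and 15.3 FPKM in siLAT1-3 libraries, 3.06 and 3.09 FPKM in siLAT1-2 libraries, and 14.18 and 14.84 FPKM in siNC libraries (1.98 ± 0.0453; limma adjusted p = 5.36e-06). In both genes the siLAT1-3 and siNC libraries could not be separated by the test (limma adjusted p = 0.86 for CYB5R3 and 0.464 for SGPL1), while the siLAT1-2 libraries lay 2.02 and 1.93 below siNC.

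Other genes of the 15 highest had the same arrangement at higher levels. TMEM123, a cell surface glycoprotein, had 252.09 and 241.94 FPKM in siLAT1-3 libraries, 102.29 and 95.18 FPKM in siLAT1-2 libraries, and 239.54 and 238.06 FPKM in siNC libraries, a difference of 1.31. SDHC, a membrane subunit of succinate dehydrogenase in the mitochondrial inner membrane, had 80.5 and 80.7 FPKM in siLAT1-3 libraries, 28.04 and 28.26 FPKM in siLAT1-2 libraries, and 80.48 and 82.71 FPKM in siNC libraries, a difference of 1.49 (limma adjusted p = 4.98e-06). SPINT2, an inhibitor of membrane serine proteases, had 43.92 and 44.54 FPKM in siLAT1-3 libraries, 19.08 and 19.25 FPKM in siLAT1-2 libraries, and 43.18 and 43.58 FPKM in siNC libraries, a difference of 1.17. The rule that picked the 15 highest required that the libraries of the siRNAs did not overlap.

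The remaining members of the 15 highest included POLR3G, a subunit of RNA polymerase III (1.47), DPY19L1, of a family of C-mannosyltransferases (1.38), and TMEM2, a cell surface hyaluronidase (1.33). CAP2, an actin-binding protein, differed by 1.22. The lysosomal sialic acid carrier SLC17A5 differed by 1.13. The noncoding transcript ENSG00000223478, ZDHHC12-DT by its current symbol, had 10.95 and 10.71 FPKM in siLAT1-3 libraries, 2.85 and 2.82 FPKM in siLAT1-2 libraries, and 10.7 and 10.37 FPKM in siNC libraries. In 2 of the 15, both siRNAs were called below siNC by unequal amounts. F2RL1, the protease-activated receptor PAR2, had 32.01 and 34.03 FPKM in siLAT1-3 libraries, 11.45 and 10.57 FPKM in siLAT1-2 libraries, and 39.01 and 39.33 FPKM in siNC libraries. TOB1, an antiproliferative protein that binds the CCR4-NOT deadenylase, had 19.15 and 19.83 FPKM in siLAT1-3 libraries, 8.04 and 8.72 FPKM in siLAT1-2 libraries, and 24.84 and 24.06 FPKM in siNC libraries.

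The lowest differences mirrored this, with siLAT1-3 below siNC and siLAT1-2 near it. CENPQ, a kinetochore protein of the constitutive centromere complex, had 5.27 and 5.41 FPKM in siLAT1-3 libraries, 23.93 and 25.99 FPKM in siLAT1-2 libraries, and 23.55 and 23.82 FPKM in siNC libraries (-2.03 ± 0.0471, SE; limma adjusted p = 5.36e-06). ME2, the mitochondrial malic enzyme, had 7.31 and 7.75 FPKM in siLAT1-3 libraries, 29.5 and 29.33 FPKM in siLAT1-2 libraries, and 28.15 and 30.28 FPKM in siNC libraries (-1.83 ± 0.0469). NUP43, a subunit of the nuclear pore, had 7.02 and 7.93 FPKM in siLAT1-3 libraries, 27.32 and 29.02 FPKM in siLAT1-2 libraries, and 28.89 and 30.87 FPKM in siNC libraries (-1.78 ± 0.063). With siLAT1-2 none of the 3 was called against siNC (limma adjusted p between 0.288 for CENPQ and 0.887 for ME2).

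In several of the 15 lowest every siLAT1-2 library lay above the siNC libraries: TFAM, FAM210B, SLC25A22, CENPQ, NEDD4, PTGFRN, MOCS2 and NXT2. TFAM, which packages mitochondrial DNA and starts its transcription, had 10.36 and 9.28 FPKM in siLAT1-3 libraries, 33.32 and 34.36 FPKM in siLAT1-2 libraries, and 30.74 and 28.84 FPKM in siNC libraries (-1.69; limma adjusted p = 1.08e-05). FAM210B, a mitochondrial membrane protein, had 2.01 and 1.92 FPKM in siLAT1-3 libraries, 9.43 and 8.76 FPKM in siLAT1-2 libraries, and 7.72 and 6.58 FPKM in siNC libraries (-1.77). SLC25A22, a mitochondrial glutamate carrier, had 6.71 and 6.27 FPKM in siLAT1-3 libraries, 16.83 and 17.99 FPKM in siLAT1-2 libraries, and 12.68 and 13.85 FPKM in siNC libraries (-1.30). SLC25A22 and FAM210B were called on both sides of siNC, below it with siLAT1-3 and above it with siLAT1-2 (log2 0.37 and 0.31 above). So were PTGFRN, MOCS2 and NXT2 of the same 15 (log2 0.22, 0.41 and 0.19 above with siLAT1-2).

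Others of the 15 lowest were FAM20B, a kinase that phosphorylates xylose in the linker of glycosaminoglycans, at 6.42 and 6.4 FPKM in siLAT1-3 libraries, 22.14 and 21.22 FPKM in siLAT1-2 libraries, and 22.2 and 20.79 FPKM in siNC libraries. The ubiquitin ligase NEDD4 differed by -1.44, the sorting nexin SNX24 by -1.44 and PTGFRN, a partner of tetraspanins, by -1.39. MOCS2, of molybdenum cofactor synthesis, differed by -1.38, VMA21, an assembly factor of the vacuolar proton pump, by -1.35 and NXT2, of mRNA export, by -1.33. A signalling gene outside the naming rule, PTPN11, was chosen after its values were seen. PTPN11, the phosphatase SHP2, had 28.85 and 29.12 FPKM in siLAT1-3 libraries, 71.03 and 73.4 FPKM in siLAT1-2 libraries, and 46.48 and 47.55 FPKM in siNC libraries, so that siNC lay between the siRNAs (-1.29; limma adjusted p = 5.36e-06).

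**Figure D2:**
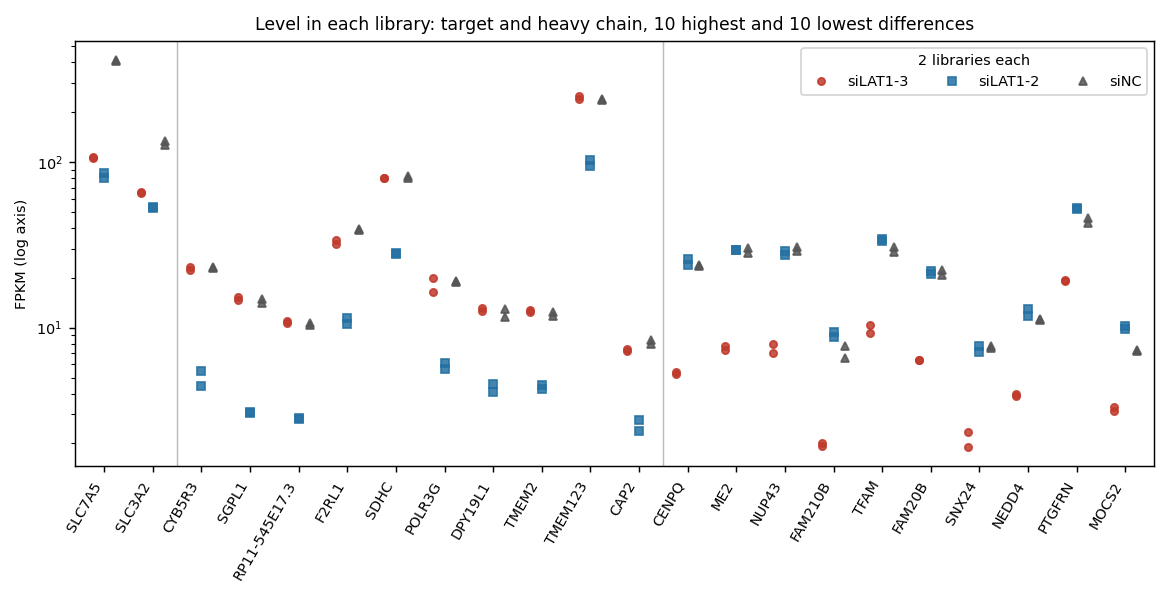
Level in FPKM (log axis) in each library for SLC7A5, SLC3A2 and the 10 highest and 10 lowest differences among protein-coding and long noncoding genes; circles are siLAT1-3, squares siLAT1-2 and triangles siNC, 2 libraries each. CYB5R3 to CAP2 have siLAT1-2 as the low group and CENPQ to MOCS2 have siLAT1-3 as the low group, while SLC7A5 and SLC3A2 are low with both.

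Hairpin genes of microRNAs were also among the extremes, at a few reads each. Mature sequences are printed, 5′ to 3′ from RefSeq (GRCh38.p14), with the seed (bases 2 to 8) in capitals. The printed sequences do not share a seed, and other arms of these hairpins were not compared. The values are reads over the hairpin gene and do not measure the mature microRNA.
hsa-miR-647: gUGGCUGCacucacuuccuuc
hsa-miR-4263: aUUCUAAGugccuuggcc
hsa-miR-4697-3p: uGUCAGUGacuccugccccuuggu
These lie at chr20:63942691-63942711 on the minus strand, chr2:27996422-27996439 on the plus strand and chr11:133898506-133898529 on the minus strand. MIR647 had 6.45 and 8.67 FPKM in siLAT1-3 libraries, 1.47 and 2.39 FPKM in siLAT1-2 libraries, and 3.75 and 1.55 FPKM in siNC libraries, which corresponds to an estimated 8 and 11 reads, 2 and 3 reads, and 6 and 2 reads. MIR4697 had 4.96 and 3.88 FPKM in siLAT1-3 libraries (5 and 4 reads), 10.83 and 13.75 FPKM in siLAT1-2 libraries (12 and 14 reads), and 10.77 and 11.42 FPKM in siNC libraries (14 and 12 reads). MIR4263 rested on 2 and 1 reads in siLAT1-3 libraries, 10 and 4 in siLAT1-2 libraries, and 7 and 7 in siNC libraries. The calls of MIR647 (1.55) and MIR4263 (-1.51) ended with no filter on low values (limma adjusted p = 0.0915 and 0.126) and that of MIR4697 (-1.29) held in all 13 alternatives. Without siLAT1-3 replicate 2, MIR647 and MIR4263 were not called (0.0641 and 0.092), nor was MIR647 without siLAT1-2 replicate 1 (0.0567).

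Placed against siNC, most of the large differences lay below it. Among genes with an average log2(FPKM + 1) of at least 2, 60 were called with a difference of at least 1, 24 higher and 36 lower with siLAT1-3. In 58 of these 60 (96.7%) the siRNA further from siNC stood below siNC, siLAT1-3 in 35 genes and siLAT1-2 in 23. A gene low in siNC and raised by 1 siRNA passes the limit on average level less easily than a lowered gene. Without that limit 75 genes were called with a difference of at least 1. Those called against siNC with siLAT1-3 alone were 26 below and 3 above. With siLAT1-2 alone they were 19 below and 1 above. Among the 60 genes, the exceptions were MIR647 and TMEM41B, a membrane protein of the endoplasmic reticulum. TMEM41B had 4.51 and 4.34 FPKM in siLAT1-3 libraries, 10.51 and 10.29 FPKM in siLAT1-2 libraries, and 6.35 and 5.86 FPKM in siNC libraries. The other siRNA lay within 0.25 of siNC in 48 of the 60 genes. The share below siNC was between 92.1% and 98.2% in the 12 alternatives that include siNC. Each of them kept the limit on average level, so this range does not show how that limit bears on the share.

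The share fell with the size of the difference. It was 337 of 434 genes (77.6%) for called differences from 0.5 to 1, 675 of 1071 (63.0%) from 0.25 to 0.5 and 530 of 1146 (46.2%) under 0.25. Among the 6199 genes of the same level that were not called, it was 2602 (42.0%). No test was made of these shares. Large changes against siNC itself were not one-sided. With siLAT1-3, 97 genes (0.831%) were called at 1 or more from siNC, 48 above (0.411%) and 49 below (0.42%), and with siLAT1-2 it was 99 genes (0.848%), 52 above (0.445%) and 47 below (0.402%).

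**Figure D3:**
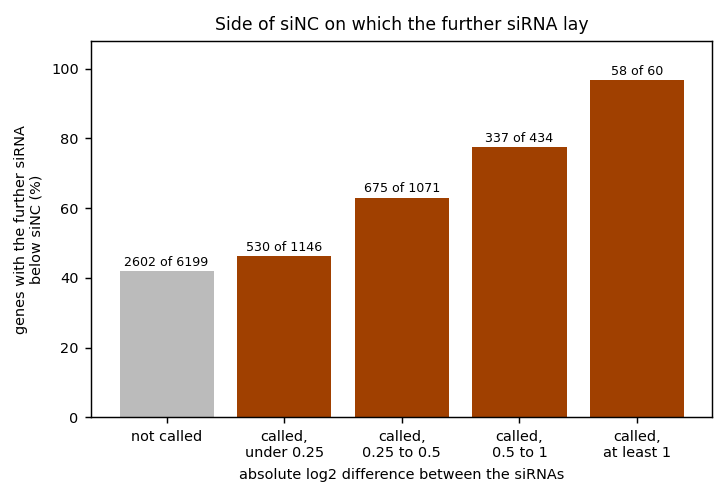
Percent of genes in which the siRNA further from siNC lay below siNC, by absolute log2 difference between the siRNAs, among genes with an average log2(FPKM + 1) of at least 2. The share was 42.0% for genes not called and went through 46.2%, 63.0% and 77.6% to 96.7% for called differences of at least 1.

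Of all 2981 called genes, 901 were called against siNC with siLAT1-3 and not with siLAT1-2, 585 of them below siNC and 316 above. Another 1025 were called against siNC with siLAT1-2 and not with siLAT1-3, 637 below and 388 above. In 171 genes siNC lay between the siRNAs with both called, 56 higher and 115 lower with siLAT1-3, and in 399 neither siRNA was called against siNC. The rest lay on the same side of siNC with both siRNAs, which share the siNC libraries, so no count is read from them. The 901 became 553 without siLAT1-3 replicate 2 and 589 without siLAT1-3 replicate 1, and the 1025 became 667 without siLAT1-2 replicate 1 and 680 without siLAT1-2 replicate 2. With no filter, the 901 became 588, the 1025 became 665 and the 171 became 82. The 171 became 65 and 67 without siNC replicate 1 and 2, and the 399 became 768 and 775. Leaving out a siLAT1-3 library gave 249 (replicate 1) and 211 (replicate 2) for the 399, and leaving out a siLAT1-2 library gave 206 (replicate 1) and 222 (replicate 2).

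By pathway, the differences were spread over nearly every list examined, and each list is read here against the 25.5% of all genes called and their median of 0.0052. The 22 pathway lists ranged from 15% called for histone and DNA methylation enzymes to 56.0% for NF-kB and inflammatory mediators. Counts and medians describe the lists, and no test was made of any list.

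Of 25 tested genes of the NF-kB and inflammatory list, 13 were lower with siLAT1-3 than with siLAT1-2, 1 was higher and 11 were not called, with a median difference of -0.16, and medians against siNC of 0.079 for siLAT1-3 and 0.24 for siLAT1-2. IL8, a chemokine that draws neutrophils, had 44.26 and 46.46 FPKM in siLAT1-3 libraries, 70.74 and 71.66 FPKM in siLAT1-2 libraries, and 38.94 and 35.13 FPKM in siNC libraries (-0.64; limma adjusted p = 0.000266). SOD2, the mitochondrial superoxide dismutase, had 29.19 and 29.5 FPKM in siLAT1-3 libraries, 46.64 and 47.32 FPKM in siLAT1-2 libraries, and 25.95 and 25.94 FPKM in siNC libraries (-0.66). Both genes were above siNC with either siRNA and higher with siLAT1-2. The subunits RELB (-0.50), NFKB1 (-0.33) and RELA (-0.19) and the apoptosis inhibitor BIRC3 (-0.48) were also lower with siLAT1-3, while the cytokine IL6 was the exception, at 2.71 and 2.15 FPKM in siLAT1-3 libraries against 1.4 and 1.38 FPKM in siLAT1-2 libraries. The call of IL6 ended with no filter on low values (limma adjusted p = 0.0663), without siLAT1-2 replicate 2 (0.0511) and without siLAT1-3 replicate 1 (0.0515). The 14 called members became 9 without siLAT1-2 replicate 1 or without siLAT1-3 replicate 2, and 7 with no filter.

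Of 37 tested genes of basal squamous identity and adhesion, 15 were higher with siLAT1-3, 1 (the integrin subunit ITGA3, -0.26) was lower and 21 were not called, with a median of 0.098, and medians against siNC of -0.052 for siLAT1-3 and -0.17 for siLAT1-2. KRT6A, a keratin of activated epidermis, had 32.18 and 30.51 FPKM in siLAT1-3 libraries, 16.86 and 17.09 FPKM in siLAT1-2 libraries, and 28.62 and 29.26 FPKM in siNC libraries (0.85; limma adjusted p = 2.73e-05). The desmosomal cadherin DSG2 had 98.4 and 95.96 FPKM in siLAT1-3 libraries, 66.09 and 64.93 FPKM in siLAT1-2 libraries, and 89.12 and 88.17 FPKM in siNC libraries (0.56). CD44, a hyaluronan receptor, differed by 0.41 and KRT14, a keratin of the basal layer, by 0.52, although the call of KRT14 ended with no filter (limma adjusted p = 0.0539). Of the 10 epithelial markers, 7 were higher and none lower (median 0.17). Some of the 10 (KRT5, KRT14, KRT17, KRT6A, DSG3, TP63 and CDH1) are on the basal list too. The 10 markers summed to 1270 to 1290 FPKM in siLAT1-3 libraries, 1170 to 1190 FPKM in siLAT1-2 libraries and 1340 FPKM in siNC libraries. The 16 called basal genes became 10 without siLAT1-3 replicate 2, with no filter or with no trend of the spread with level, and the 7 called epithelial markers became 3 with no filter. Genes of terminal squamous differentiation did not share this direction, with 2 higher and 3 lower of 19.

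On the list of NRF2 targets and glutathione synthesis, 13 of 29 tested genes were higher with siLAT1-3, 2 were lower and 14 were not called (median 0.14), with medians against siNC of -0.057 for siLAT1-3 and -0.17 for siLAT1-2. SLC7A11, the cystine carrier that feeds glutathione synthesis and shares the heavy chain SLC3A2, had 20.02 and 17.93 FPKM in siLAT1-3 libraries, 9.53 and 9.71 FPKM in siLAT1-2 libraries, and 17.26 and 17.56 FPKM in siNC libraries (0.91; limma adjusted p = 8.68e-05). TXNRD1, thioredoxin reductase, had 152.3 and 152.83 FPKM in siLAT1-3 libraries, 115.74 and 114.4 FPKM in siLAT1-2 libraries, and 188.65 and 190.49 FPKM in siNC libraries (0.40). AKR1B10, an aldo-keto reductase, differed by 0.39. The enzymes of glutathione synthesis did not share a direction. Of the subunits of glutamate-cysteine ligase, its first enzyme, the catalytic GCLC was higher (0.17; limma adjusted p = 0.0112) and the modifier GCLM lower (-0.18; limma adjusted p = 0.0173), and glutathione synthetase, GSS, was not called (-0.078). The other lower gene was the ferritin light chain FTL, at 2933.28 and 3015.33 FPKM in siLAT1-3 libraries, 4035.37 and 3907.4 FPKM in siLAT1-2 libraries, and 4643.29 and 4616.61 FPKM in siNC libraries (-0.42). With no filter FTL was not called (limma adjusted p = 0.0696), and quantile normalization, which gives genes of equal rank equal values, set its difference to 0. With no filter 6 of the 15 calls of the list were made.

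Genes of amino acid supply shared only in part the order of the siRNAs seen in SLC7A5. The amino acid response list had 31 tested genes, 10 of them higher and none lower with siLAT1-3 (32.3% called, median 0.13). Its medians against siNC were 0.25 for siLAT1-3 and 0.15 for siLAT1-2, whereas SLC7A5 was below siNC with both. ATF4, the transcription factor that leads this response, had 136.53 and 138.39 FPKM in siLAT1-3 libraries, 107.24 and 107.32 FPKM in siLAT1-2 libraries, and 117.17 and 111.93 FPKM in siNC libraries (0.35; limma adjusted p = 0.000355). MTHFD2, a mitochondrial folate enzyme, had 58.28 and 53.18 FPKM in siLAT1-3 libraries, 41.16 and 46.14 FPKM in siLAT1-2 libraries, and 44.38 and 43.84 FPKM in siNC libraries (0.35), a call that ended with no filter (limma adjusted p = 0.0681). ASNS, asparagine synthetase, differed by 0.15. The 10 became 6 without siLAT1-2 replicate 1 and 5 with no filter, and SLC3A2 is one of them. The glutamine carrier SLC1A5 had 113.13 and 117.97 FPKM in siLAT1-3 libraries, 97.11 and 97.17 FPKM in siLAT1-2 libraries, and 86.23 and 85.84 FPKM in siNC libraries (0.25). Of 20 cytosolic aminoacyl-tRNA synthetases, 3 were higher and 4 lower (35.0%), with those for leucine (LARS, -0.25) and histidine (HARS, -0.29) among the lower ones. Of 36 genes of mTORC1 and amino acid sensing, 3 were higher and 5 lower (22.2%), led by the sestrin SESN3 (-0.63).

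Enzymes of the methionine cycle, folate and polyamines were mostly lower with siLAT1-3 where they were called, 9 lower and 1 higher of 29 tested (34.5%, median -0.036). ADI1, a dioxygenase of methionine salvage, had 17.81 and 18.01 FPKM in siLAT1-3 libraries, 38.29 and 38.97 FPKM in siLAT1-2 libraries, and 32.76 and 33.82 FPKM in siNC libraries (-1.07; limma adjusted p = 7.84e-06). OAZ1, the antizyme that restrains polyamine synthesis, had 56.39 and 59.16 FPKM in siLAT1-3 libraries, 95.11 and 94.08 FPKM in siLAT1-2 libraries, and 89.5 and 93.18 FPKM in siNC libraries (-0.70). MAT2B, the regulatory subunit of methionine adenosyltransferase, differed by -0.60, and ODC1, the first enzyme of polyamine synthesis, was the gene that was higher (0.32).

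In the small RNA silencing machinery, 6 of 22 tested genes were higher and 2 lower with siLAT1-3 (36.4%, median -0.019). TNRC6A is a GW182 protein, which links Argonaute to deadenylation. It had 13.82 and 12.68 FPKM in siLAT1-3 libraries, 6.49 and 6.45 FPKM in siLAT1-2 libraries, and 20.3 and 19.85 FPKM in siNC libraries. Its difference was 0.93 (limma adjusted p = 5.32e-05). The decapping factors DCP1A and DCP2 differed by 0.84 and 0.72. DCP2 was above siNC with both siRNAs, at 14.84 and 14.7 FPKM in siLAT1-3 libraries, 8.7 and 8.51 FPKM in siLAT1-2 libraries, and 7.46 and 6.87 FPKM in siNC libraries. The 2 lower genes were TNRC6B, of the same family as TNRC6A (-0.5, limma adjusted p = 0.00256), and DICER1, the nuclease that cuts microRNA hairpins (-0.57). DICER1 had 12.37 and 11.67 FPKM in siLAT1-3 libraries, 17.67 and 19.1 FPKM in siLAT1-2 libraries, and 19.95 and 19.97 FPKM in siNC libraries.

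Among subunits of PRC2, the complex of EZH2, 2 of 13 were higher and 3 lower with siLAT1-3. The histone-binding subunit RBBP4 had 29.06 and 28.7 FPKM in siLAT1-3 libraries, 20.29 and 19.12 FPKM in siLAT1-2 libraries, and 20.21 and 20.87 FPKM in siNC libraries (0.53; limma adjusted p = 0.000204). The accessory subunit JARID2 had 6.91 and 6.86 FPKM in siLAT1-3 libraries, 11.4 and 10.57 FPKM in siLAT1-2 libraries, and 7.95 and 7.21 FPKM in siNC libraries (-0.60). LCOR, whose locus also encodes a PRC2 accessory protein, differed by -0.69 and AEBP2 by -0.40. RBBP4 was called above siNC with siLAT1-3 and not with siLAT1-2, and JARID2 was called above siNC with siLAT1-2 and not with siLAT1-3.

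Cell cycle lists moved unevenly. Of 48 genes of G2 and mitosis, 16 were lower and 5 higher with siLAT1-3 (43.8%, median -0.083), among them the mitotic kinase CDK1 at 24.93 and 27.07 FPKM in siLAT1-3 libraries, 36.31 and 36.51 FPKM in siLAT1-2 libraries, and 38.3 and 41.63 FPKM in siNC libraries (-0.47; limma adjusted p = 0.0011). MKI67, the proliferation antigen, differed by -0.31, and TOP2A, the topoisomerase of mitotic chromosomes, by 0.46. The 21 calls became 10 without siLAT1-3 replicate 2, 13 without either siLAT1-2 library and 8 with no filter. Of 52 genes of S phase, 6 were higher and 4 lower (19.2%), led by cyclin E1 (CCNE1, 0.57). Of 23 genes responsive to p53, 2 were higher and 5 lower. MDM2, the ubiquitin ligase of p53, had 7.75 and 7.34 FPKM in siLAT1-3 libraries, 3.02 and 3.09 FPKM in siLAT1-2 libraries, and 10.16 and 9.69 FPKM in siNC libraries (1.08), opposite in direction to DDB2 (-0.54) and BTG2 (-0.45).

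In the mesenchymal and TGF-beta list, 7 genes were higher and 10 lower of 31 (54.8%), with a median of 0.0098. TGFBI, an extracellular matrix protein induced by TGF-beta, had 119.65 and 118.75 FPKM in siLAT1-3 libraries, 63.64 and 63.89 FPKM in siLAT1-2 libraries, and 101.95 and 103.77 FPKM in siNC libraries (0.89; limma adjusted p = 6.39e-06). The receptor TGFBR2 had 20.51 and 20.55 FPKM in siLAT1-3 libraries, 38.24 and 41.09 FPKM in siLAT1-2 libraries, and 40.81 and 43.87 FPKM in siNC libraries (-0.92). The receptor kinase AXL (-0.67) was also lower. The list therefore held many differences in opposite directions. Its 17 calls became 11 without siLAT1-3 replicate 2 and 10 with no filter.

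Sterol and fatty acid synthesis was lower with siLAT1-3 in 11 and higher in 4 of 32 genes (46.9%, median -0.11). HMGCS1, of the mevalonate pathway, had 30.99 and 34.1 FPKM in siLAT1-3 libraries, 53.02 and 51.5 FPKM in siLAT1-2 libraries, and 74.12 and 75.12 FPKM in siNC libraries (-0.67; limma adjusted p = 0.000156). INSIG1, which holds back the sterol-sensing factors, differed by -0.50. In the unfolded protein response 8 genes were higher and 2 lower of 27 (37.0%), among them EDEM2 (0.53) and SYVN1 (0.43), both of degradation from the endoplasmic reticulum, and the chaperone DNAJB9 (-0.68). The 10 calls became 5 without siLAT1-3 replicate 2, 4 with no filter and 6 with no trend of the spread with level. Glycolysis and hypoxia genes were called in 25% of 32, the share of all genes, although TPI1, triosephosphate isomerase, had 177.17 and 193.45 FPKM in siLAT1-3 libraries, 358.54 and 352.96 FPKM in siLAT1-2 libraries, and 401.78 and 391.42 FPKM in siNC libraries (-0.94).

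The remaining lists had from 15% to 31.7% of their members called. Autophagy and lysosome had 7 higher and 6 lower of 41, with the lysosomal membrane protein LAMP1 at 0.66 and the autophagy receptor OPTN at -0.69. Interferon-stimulated genes had 4 higher and 2 lower of 27 (22.2%). IFIT2 had 4.57 and 4.4 FPKM in siLAT1-3 libraries, 3.33 and 3.43 FPKM in siLAT1-2 libraries, and 7.45 and 7.23 FPKM in siNC libraries (0.32), and OAS3 differed by -0.31. Amino acid carriers outside system L had 3 higher and 2 lower of 18 (27.8%), and histone and DNA methylation enzymes 1 higher and 5 lower of 40. The counts of these lists and of the other short ones moved with single libraries and with the filter. With no filter the calls became 3 of 8 for mTORC1, 3 of 7 for p53, 5 of 10 for S phase, 3 of 6 for interferon, 2 of 5 for terminal differentiation and 8 of 13 for autophagy and lysosome. With no trend of the spread with level, S phase had 5 and terminal differentiation 3, which was also the count with only the siLAT1 libraries. Without siLAT1-3 replicate 1 the 6 interferon calls became 3 and the 8 mTORC1 calls became 2. Without siLAT1-3 replicate 2 the mTORC1 calls became 5, those of p53 became 3 of 7, of S phase 6 of 10, of the synthetases 4 of 7 and of terminal differentiation 3 of 5. Without siLAT1-2 replicate 1 the mTORC1 calls became 5, those of p53 became 4 and of the carriers outside system L 3 of 5. Without siLAT1-2 replicate 2 the mTORC1 calls became 4, those of S phase 5, of the synthetases 4 and of terminal differentiation 3, which was 3 without either siNC library too.

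**Figure D4:**
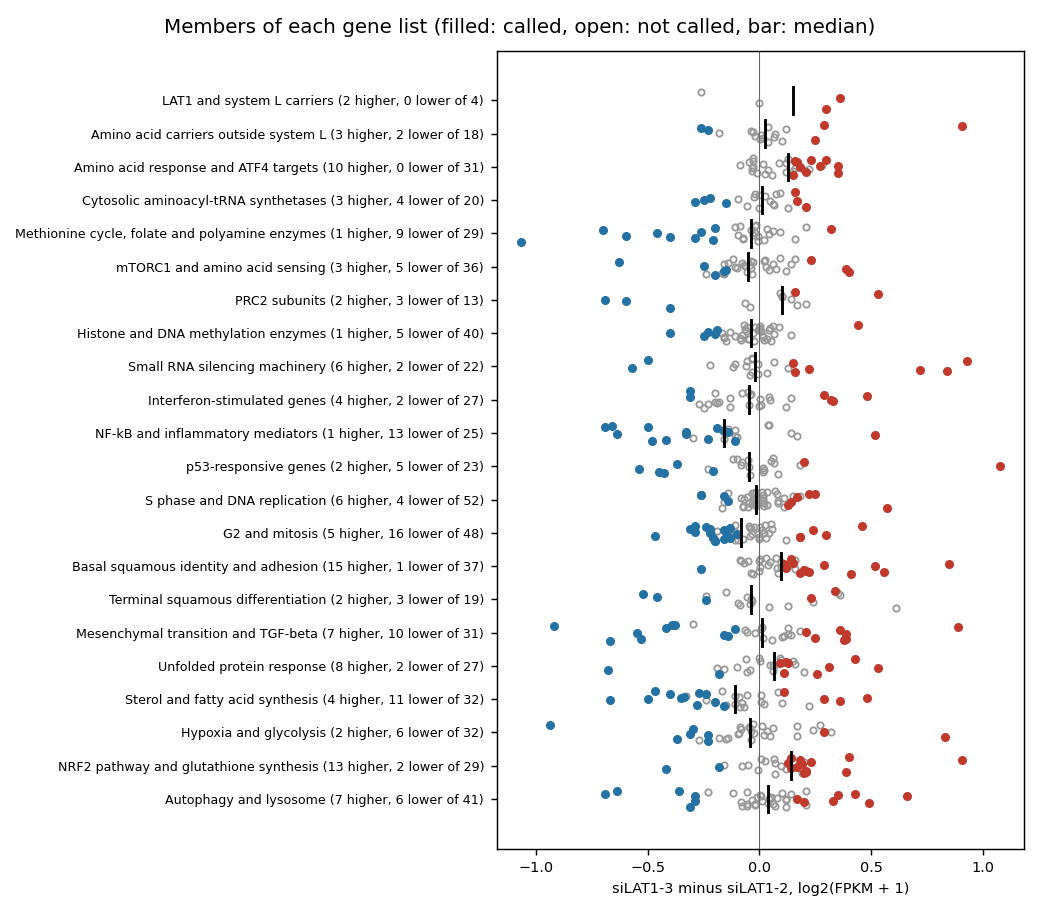
Difference siLAT1-3 minus siLAT1-2 in log2(FPKM + 1) for every tested member of the 22 pathway lists, 1 row per list; filled points are called (red higher, blue lower with siLAT1-3), open points are not called and the bar is the list's median. NF-kB mediators lie mostly left of 0 (median -0.16) and NRF2 genes (0.14) and basal squamous genes (0.098) mostly right of it.

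The most alike comparison in the series is that of the siRNAs against EZH2, in separate libraries of the same cell line. There, siEZH2-2 differed from siEZH2-1 in 1883 of 11585 genes (16.3%), with 105 genes (0.906%) at an absolute log2 difference of at least 1. The count was 859 and 650 without siEZH2-1 replicate 1 and 2, 1238 and 841 without siEZH2-2 replicate 1 and 2, and 836 with no filter. Estimated depth was 21000000 to 27240000 a library in the EZH2 table, against 12640000 to 16780000 in the LAT1 table. The tables were normalized apart and the difference between these shares was not tested. Among 10804 genes tested in both tables, 2840 (26.3%) were called between the LAT1 siRNAs and 1830 (16.9%) between the EZH2 siRNAs, and 681 were called in both, 24% of the LAT1 calls and 37.2% of the EZH2 calls. Of 59 large LAT1 differences tested in both, 17 (28.8%) were called between the EZH2 siRNAs and 3 reached 1 there. CYB5R3, SDHC, CENPQ and ME2 were not called between the EZH2 siRNAs, with differences of -0.04, -0.092, -0.12 and 0.018. SGPL1 and NUP43 were, at -0.51 and -0.54. The LAT1 gene was itself called between the EZH2 siRNAs. SLC7A5 had 595.97 and 590.7 FPKM in siEZH2-2 libraries, 183.84 and 192.68 FPKM in siEZH2-1 libraries, and 733.01 and 777.26 FPKM in siNC libraries of that table (1.65; limma adjusted p = 8.66e-05), and SLC3A2 differed by 1.33 there (limma adjusted p = 0.000178). Between the LAT1 siRNAs these genes differed by 0.36 and 0.30, and whether the tables differ in this was not tested. TMEM2 and SLC17A5, of the 15 highest, also reached 1 between the EZH2 siRNAs, at -1.54 and 1.07.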

How the data were processed

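Total RNA of KYSE510 cells was sequenced, and the authors deposited 1 table of FPKM per target with 1 column per library and 2 decimals. The header names no unit. FPKM was read from the column sums (245634 to 252774 in the LAT1 table) and from low values that rise in steps set by gene length. Per the submitters' processing notes, the tools include STAR, Trim Galore, Bowtie, Bowtie2, SEACR and Picard; hg19 and hg38 are both named, and neither tools nor builds are given a role. The counter, gene lengths and strand setting are not given in the sources used here. Overlapping and antisense genes, close paralogs and pseudogenes may therefore share reads.

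siNC libraries were numbered by their descriptions, because their titles repeat a number. Depth was estimated from the steps of 1 read in short RNA genes: 91.9% to 93.9% of values were whole within 0.12 reads, against 24% by chance at a fixed depth. Reads and fragments cannot be told apart, and hairpin read numbers carry counting error.

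From these values, limma 3.58.1 with a trend (R 4.3.3) was run on log2(FPKM + 1) of genes averaging 1 FPKM or more, in 3 groups of 2 libraries. Intervals are at 95%. Count-based tests, planned for counts only, were not run because the tables hold FPKM. The script was tested on simulated data. Named genes were SLC7A5, SLC3A2 and EZH2, the 15 highest and 15 lowest called differences with an average log2 of at least 2 and no overlap, up to 4 called members per list by size and the 5 largest differences in each class of position against siNC; others are values from the lists or are said to be chosen later. A few genes that the rule names are not reported here. The members and lists were chosen with earlier results of these data known. Of 740 list symbols, 725 were found in the table. As alternatives the filter was dropped or set at 5 FPKM, the pseudocount was set at 0.1, and the fit was run with quantile normalization, no trend, a replicate block, only the siLAT1 libraries, a minimum difference and leaving out each library.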

Additional observations from a re-analysis of the deposited data

How the results depend on the processing

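The count of genes called between siLAT1-3 and siLAT1-2, 2981, was 75 with a minimum absolute log2 difference of 1 and 1823 with no filter on low values, which adds genes to the correction. It ranged from 1958 to 2536 when a library was left out. It was 2957 with quantile normalization, 2989 with a pseudocount of 0.1, 2704 with a filter at 5 FPKM, 2572 with no trend and 2532 with only the siLAT1 libraries. The share of called genes that were higher with siLAT1-3 ran from 45.0% to 50.9% (48.5% as reported). The 3672 genes of siLAT1-3 against siNC became 2402 with no filter and 2138 to 3526 with a library left out, and the 3796 of siLAT1-2 against siNC became 2364 to 3756. The 1883 of the EZH2 siRNAs became 836 with no filter and 650 to 1499 with a library left out. The difference in SLC7A5 was 0.31 to 0.41 with a library left out. The 75 large differences became 134 with a pseudocount of 0.1, where low genes weigh more. Replicate numbers do not pair the samples by their labels, and deviations of same-numbered libraries correlated by 0.0177, 0.0334 and 0.0826 between groups. With the replicate block 2703 genes were called between the LAT1 siRNAs, 3375 with siLAT1-3 and 3553 with siLAT1-2 against siNC, and 1021 between the EZH2 siRNAs, while SLC7A5 stayed at 0.36. The cause of these moves was not tested. For 123 named genes, 1496 of 1583 results under alternatives kept direction and call, 87 lost the call (53 with a library left out) and none reversed. Of the counts per list, 44 moved by over 1.5 times and 279 did not. The hairpin genes described rest on 1 to 14 estimated reads a library.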
